A study of Mus musculus with 36 samples.

Results

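Collagens are secreted proteins whose chains wind into triple helices and assemble into the fibres, sheets and filaments that hold tissues together. In the heart, types I and III form the fibres that carry load between muscle bundles, and type IV forms the sheet-like basement membrane that surrounds each cardiomyocyte and lines each vessel. Fibroblasts are known as the main source of the fibrillar types, and endothelial cells, smooth muscle cells and cardiomyocytes add basement membrane chains. The results below follow the collagen genes, found as every row of the expression table whose symbol has the form Col, number, a, number, which gave 41 of 36128 gene models under 32750 symbols. No symbol had more than 1 row, so none had to be chosen over another. By structure, 10 were fibrillar, 5 basement membrane, 6 type VI, 9 fibril-associated (FACIT), 3 short chain, 2 multiplexin and 4 transmembrane, and the other 2 belonged to none of these classes. Col1a2 and Col4a5 were not analysed here.

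RNA sequencing covered 36 libraries of mouse heart from the CD-1 background, in 16 groups, and no label names a transgene or mutation. Adult cardiomyocytes were dissociated and kept as explants for 0, 24, 48 or 72 h, with n = 2 at each time. Cardiomyocytes purified on Miltenyi columns, called isolated cells here, came from hearts 7 days after resection of heart tissue, 7 days after a sham operation, at postnatal day 4 (P4) and at P0, with n = 3 in each group. Whole ventricle made up 8 groups of n = 2: P0, P4, P7, adult, and resection and sham at day 1 and at day 7. The age at operation, the adult age and the sex are not given in the labels, nor is any pooling of animals. Replicates were not stated to come from separate animals, so p-values measure only the spread between these samples, which may be technical.

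Levels are FPKM, which scale fragments by transcript length and library size, so genes can be compared with each other per length, but the depth of each library is unknown. Between 10454 and 13134 gene models per library had at least 1 FPKM. All samples carry the cell type label cardiomyocytes, and the 5 cardiomyocyte markers found in the table, out of 6 listed, summed to 2558 to 19725 FPKM in explants, 4224 to 16879 in isolated cells and 15593 to 24370 in ventricle. The 9 fibroblast markers summed to 7.66 to 30.2 FPKM in explants, 80.0 to 1023 in isolated cells and 338 to 828 in ventricle. By these markers neither ventricle nor isolated cells were cardiomyocytes alone. Explants held markers of other cells too. Smooth muscle and pericyte markers summed to 74.1 and 114 FPKM at 0 h, and macrophage markers to 78.4 and 134 at 72 h. Isolated P0 replicates 1 and 2 were closer to each other than any other pair of replicates, with a robust SD of their log2 difference of 0.09, against 0.152 to 0.651 for the other pairs. With no counts their likeness could not be set against sampling noise, and results that rest on them are also given with them as 1 sample. Isolated P0 replicate 1 lists Col4a1 and Col4a2 at 0, although the other libraries of that group hold both at 36.2 FPKM or more, and these 2 values were treated as missing. The labels name 2 library kits and 2 sequencers without saying which library had which, so no technical batch could be formed.

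Of the 41 genes, 31 reached 1 FPKM in at least 1 library. Col3a1, the single chain of type III collagen, had the highest mean, 219 FPKM, followed by Col4a1 with 126, Col1a1 with 109, Col4a2 with 86.4 and Col15a1 with 38.3. Col4a1 and Col4a2 were the 2 genes at or above 1 FPKM in every library with a value. The 10 genes under 1 FPKM in every library were Col2a1, Col6a4, Col7a1, Col10a1, Col17a1, Col19a1, Col20a1, Col22a1, Col25a1 and Col28a1. This group holds the main chain of cartilage fibrils (Col2a1), the chain of hypertrophic cartilage (Col10a1) and the anchoring fibril chain of skin (Col7a1), and its highest single value was 0.913 FPKM, for Col7a1.

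Summed over the genes, collagen FPKM averaged 55.9 ± 8.38 in explants at 0 h, 57.6 ± 20.1 at 24 h, 39.9 ± 6.40 at 48 h and 75.5 ± 4.43 at 72 h (SD, n = 2 each). In isolated cells the sum was 998 to 2499 after resection and 675 to 1472 after sham, 288 to 644 at P4, and 342 and 411 in the P0 libraries that had a value. In ventricle it was 1182 and 1673 at P0, 1600 and 1675 at P4, 1639 and 1779 at P7, and 416 and 460 in adults. Operated ventricles held 608 and 627 after resection and 633 and 671 after sham at day 1, and 924 and 1017 after resection and 886 and 974 after sham at day 7. Explants thus had the lowest sums of all libraries, and adult ventricle had lower sums than every P0, P4 or P7 ventricle. After median-of-ratios scaling the explant sums at 72 h, 59.2 and 58.6, lay below those at 0 h, 85.7 and 76.8, so the direction between these times depends on the scaling. In bulk samples, fewer cells of a type and less RNA per cell cannot be told apart.

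The classes took different shares of that sum. Fibrillar genes made up 51.7% to 53.7% of collagen FPKM in the 6 ventricle libraries from P0 to P7, and 31.3% and 31.5% in the adult ventricles. Basement membrane genes made up 24.9% to 26.6% in the same young ventricles and 37.9% and 39.7% in adults. In explants fibrillar genes made up 3.84% to 21.9% and basement membrane genes 48.4% to 81.1%. Type VI genes, whose products form beaded microfilaments around cells, took 3.05% to 19.0% over all libraries, and the multiplexins Col15a1 and Col18a1 2.24% to 11.5%. These shares are a description and were not tested.

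**Figure D1:**
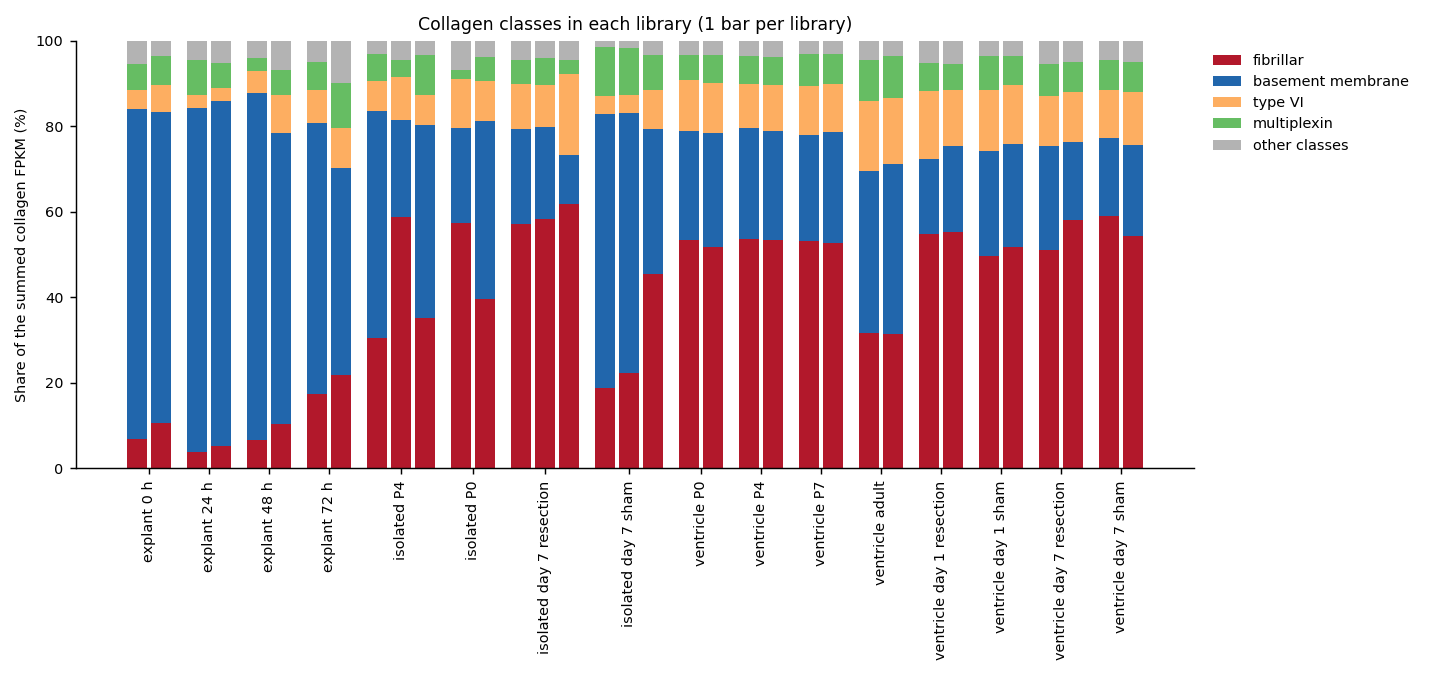
Share of the summed collagen FPKM (vertical axis, percent) taken by each class in the 35 libraries with a value for all genes, 1 bar per library, grouped along the horizontal axis. Basement membrane genes fill 48.4% to 81.1% of each explant bar, and fibrillar genes 51.7% to 53.7% of the bars for ventricle from P0 to P7.

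The main genes peaked in different groups. Col1a1, a chain of type I collagen, had its highest group mean in P0 ventricle, with 368 and 253 FPKM, and its lowest in explants at 24 h, with 0.221 and 0.213. Its highest single library, at 417 FPKM, was of isolated cells after resection. Col3a1 had its highest group mean in isolated cells after resection, where its 3 libraries spread from 338 to 889 FPKM. Col6a1 and Col6a2, chains of the type VI microfilaments, had their highest group mean in P7 ventricle. There Col6a1 held 80.9 and 71.6 FPKM and Col6a2 84.4 and 73.6. Outside that group, single libraries reached 96.9 for Col6a1 and 95.9 for Col6a2. P7 ventricle was also the highest group for Col15a1, with 111 and 94.9 FPKM, although isolated cells after resection reached 126 in 1 library. Col8a1, a network-forming chain known from vessels and the cornea, was highest in adult ventricle, with 9.09 and 7.20 FPKM.

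**Figure D2:**
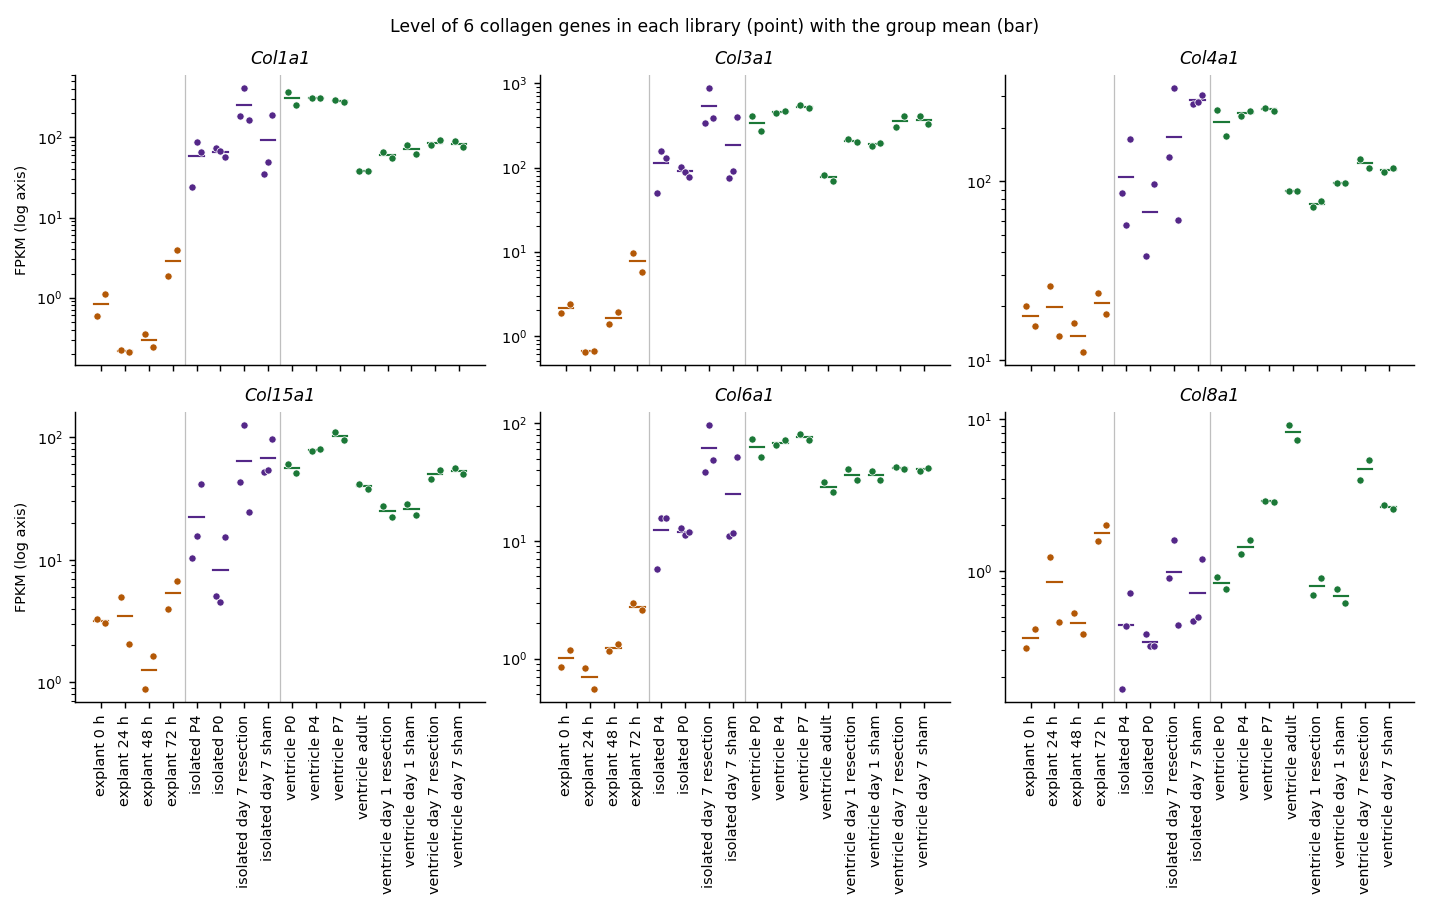
FPKM (log vertical axis) of 6 collagen genes in each library, 1 point per library with a bar at the group mean, for the 16 groups along the horizontal axis. Explants lie lowest for Col1a1 and Col3a1, and adult ventricle, at 9.09 and 7.20 FPKM, is highest for Col8a1; Col4a1 has 2 points at isolated P0 because 1 value is missing.

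Col4a1 and Col4a2 encode the chains that wind together, in a fixed proportion, into the common type IV collagen of basement membranes. In the deposited mm9 coordinates the gene models lie at chr8:11198422-11312826 for Col4a1 and chr8:11312804-11449287 for Col4a2, head to head, and overlap by 23 bases, and no other neighbouring collagen pair in the table overlapped. The next closest were Col4a4 and Col4a3 on chromosome 1, 70 bases apart. The promoter windows of the pair are shown because they overlap and because the levels of the genes are read together below. Each window runs from 250 bases before to 50 bases after the gene's start, 5′ to 3′ on that gene's own strand, from RefSeq on GRCm38.p6, a later build than that of the deposited coordinates. Col4a1 lies on the minus strand at chr8:11312777-11313076 and Col4a2 on the plus strand at chr8:11312555-11312854, and capitals mark the 78 bases that lie in both windows.
Col4a1: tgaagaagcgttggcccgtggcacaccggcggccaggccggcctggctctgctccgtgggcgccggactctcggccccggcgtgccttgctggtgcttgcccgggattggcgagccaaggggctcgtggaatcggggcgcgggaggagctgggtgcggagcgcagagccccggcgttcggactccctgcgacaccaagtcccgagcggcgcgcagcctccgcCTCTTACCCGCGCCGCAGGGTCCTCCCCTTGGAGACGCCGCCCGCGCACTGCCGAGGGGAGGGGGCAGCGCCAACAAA
Col4a2: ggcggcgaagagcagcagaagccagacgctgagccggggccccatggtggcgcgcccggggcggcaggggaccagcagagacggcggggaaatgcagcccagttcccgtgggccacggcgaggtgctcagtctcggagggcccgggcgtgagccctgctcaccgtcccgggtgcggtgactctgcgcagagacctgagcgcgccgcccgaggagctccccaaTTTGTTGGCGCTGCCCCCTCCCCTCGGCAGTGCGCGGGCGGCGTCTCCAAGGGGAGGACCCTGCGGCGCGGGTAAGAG
The windows had a GC content of 74.0% for Col4a1 and 73.7% for Col4a2, against a median of 52.7% over the 32851 windows of the RefSeq table. GGGCGG, the core that Sp1-type factors bind, was searched on both strands and occurred 1 time in the Col4a1 window and 3 times in the Col4a2 window, 1 of them in the shared stretch; 35.7% of all windows hold it. CCAAT, searched on both strands, occurred 1 time in each window and not in the shared stretch, with 37.4% of all windows holding it. TATAAA was in neither window, with 13.6% of all windows holding it. A match is a description of letters and not of a bound site. Of the 41 genes, 33 had a window in the table.

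The levels of Col4a1 and Col4a2 kept close to each other. Their ratio lay between 0.636 and 1.92 over the 35 libraries with values, while Col4a1 itself spanned 11.1 to 335 FPKM. Explants held the ratios under 1, from 0.636 to 0.908 in 7 of 8 libraries and 1.10 in 72 h replicate 2. Isolated cells had ratios of 1.06 to 1.72 and ventricle of 1.07 to 1.92, with adult ventricle at the low end at 1.07 and 1.17. A narrow range was not particular to this pair. The ratio of Col6a1 to Col6a2, which lie 85160 bases apart, lay between 0.507 and 1.70 over all libraries. Col6a1 itself spanned 0.554 to 96.9 FPKM. None of these ratios, nor that of Col1a1 to Col3a1 below, was tested, since all were taken up after their values had been seen.

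The first comparison follows the ventricle through the first postnatal week, P7 against P0. A gene was called when limma's moderated test on log2(FPKM + 1) gave a Benjamini-Hochberg adjusted p under 0.05 over all 14306 gene models tested in ventricle, among them 25 collagen genes. At P7, 4 collagen genes were higher than at P0 and 6 were lower, beside 4.35% of all models called higher and 8.21% called lower. Their median change was 0.12 on the log2 scale, against -0.14 for all models. At P4 against P0, 1 was higher and 1 lower, beside 0.58% and 0.769% of all models, with a median of 0.05 against -0.04.

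Of the fibrillar genes, Col5a3 was called higher at both P4 and P7, and the order of the genes in time was not tested. Type V collagen sits inside type I fibrils and limits their width. Col5a3 held 2.17 and 1.86 FPKM at P0, 5.07 and 4.55 at P4, and 6.82 and 6.78 at P7, with no overlap between ages. Its change was 1.37 at P7 (SE 0.14, limma adjusted p = 5.61e-05) and 0.95 at P4 (SE 0.14, adjusted p = 0.00466). Col3a1 averaged 530 ± 37.2 FPKM at P7 and 337 ± 97.4 at P0, a change of 0.68 (SE 0.20, limma adjusted p = 0.0415). Col1a1 averaged 282 ± 11.97 FPKM at P7 and 311 ± 81.2 at P0 and was not called (-0.12, 95% interval -0.51 to 0.27). Col11a1, a chain of the type XI collagen that starts cartilage fibrils, fell to 0.920 and 0.876 FPKM at P7, against 2.33 and 1.88 at P0.

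Outside the fibrillar class, the multiplexins moved in opposite directions. Col15a1, found at the outer face of basement membranes, rose to 103 ± 11.3 FPKM at P7, against 55.9 ± 6.73 at P0 (0.87, limma adjusted p = 0.0028). Col18a1, whose tail is released as endostatin, fell to 20.7 ± 0.0636 FPKM at P7, against 33.7 ± 9.92 at P0 (-0.65, limma adjusted p = 0.0423). Its P0 libraries stood apart from each other, at 40.7 and 26.7 FPKM. Col8a1 rose to 2.87 and 2.85 FPKM at P7, against 0.909 and 0.754 at P0. Col4a6, a minor basement membrane chain, fell to 0.391 and 0.416 FPKM at P7 against 2.52 and 1.81 at P0 (-1.16, limma adjusted p = 0.000839), and at P4 it held 0.663 and 0.988. The main basement membrane genes were not called: Col4a1 averaged 253 ± 7.19 FPKM at P7 and 215 ± 49.5 at P0, and Col4a2 178 ± 5.70 at P7 and 155 ± 31.2 at P0. The other genes called lower at P7 were the transmembrane collagen Col23a1 and the fibril-associated Col12a1 and Col9a2. Of the 4 measured type VI genes, 0 were called.

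The calls of the first week were sensitive to single libraries. The count of lower genes at P7 was 1 when ventricle P0 replicate 1 or P7 replicate 1 was left out and 3 when P7 replicate 2 was, and Col3a1 was not called without P0 replicate 2 (0.38, limma adjusted p = 0.24). At P4, Col5a3 was not called without P4 replicate 1 (0.88, limma adjusted p = 0.079) and Col4a6 not without P0 replicate 1 or either P4 replicate.

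Genes around the collagens moved as follows at P7 against P0, beside 4.35% of all models called higher and 8.21% called lower. Of 29 tested genes of collagen biosynthesis (enzymes that hydroxylate, trim and crosslink the chains), 3 were higher and 2 lower. Pcolce2, which speeds the trimming of procollagen ends, averaged 3.70 ± 1.15 FPKM at P7 and 0.430 ± 0.187 at P0. Of 9 fibril regulators, 4 were higher and 0 lower, among them Lum (78.1 ± 2.40 FPKM at P7, 35.8 ± 4.88 at P0) and Dcn (250 ± 13.9 at P7, 116 ± 7.13 at P0), small proteoglycans that bind collagen fibrils. Of 6 collagen receptors, the receptor kinase Ddr2 was higher (9.88 ± 0.892 FPKM at P7, 5.80 ± 0.846 at P0) and its relative Ddr1 lower (18.5 ± 2.83 at P7, 41.6 ± 7.01 at P0). The fibroblast markers, which include Dcn, Lum and Ddr2, summed to 579 and 608 FPKM at P7 and 338 and 413 at P0, with 6 of 9 called higher and 1 lower. Atrial markers summed to 6.59 and 28.2 at P7 and 884 and 212 in P0 replicates 1 and 2, with 3 of 3 called lower, and P0 replicate 1 is also a library without which fewer collagen genes were called lower. Epicardial markers were lower in 4 of 4 cases, and endothelial markers summed to 294 and 283 at P7 and 254 and 209 at P0, with 0 of 6 called. The part of these cell types in the results was not tested.

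Between P7 and the adult the collagens fell together. In adult ventricle 19 of the 25 tested collagen genes were lower than at P7 and 1 was higher, beside 29.8% of all models lower and 10.7% higher. The median change of the collagen genes was -1.17 on the log2 scale, against -0.22 over all models. All 4 tested type VI genes, all 4 tested FACIT genes and both multiplexins were lower, as were 7 of 8 fibrillar genes and 2 of 5 basement membrane genes. With median-of-ratios scaling the median was -0.93 for the collagen genes and 0.02 for all models, and with quantile normalization -0.91 and 0.00035.

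Col1a1 held 38.1 and 37.7 FPKM in adults, against 290 and 273 at P7, a change of -2.86 (SE 0.18, limma adjusted p = 3.02e-07). Col3a1 held 82.6 and 69.9 FPKM in adults, against 556 and 504 at P7, a change of -2.78 (SE 0.20, limma adjusted p = 8.62e-07). In both genes the ages lay far apart, with no overlap. Col14a1, a fibril-surface collagen, changed most, with 4.62 and 2.69 FPKM in adults against 38.7 and 34.8 at P7 (-3.05, limma adjusted p = 3.21e-07). Col5a1 fell to 10.6 ± 0.272 FPKM in adults, against 45.5 ± 3.41 at P7, and Col18a1 to 2.71 ± 0.133 in adults, against 20.7 ± 0.0636 at P7.

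Of the basement membrane chains, Col4a1 held 88.2 and 88.1 FPKM in adults against 258 and 248 at P7 (-1.51, SE 0.14), and Col4a2 held 82.2 and 75.1 in adults against 182 and 174 at P7 (-1.17, SE 0.18). Their log2 changes have 95% intervals of -1.82 to -1.20 and -1.55 to -0.79, apart from those of Col1a1 (-3.25 to -2.47) and Col3a1 (-3.21 to -2.35), and the difference between genes was not tested. Col4a3, Col4a4 and Col4a6, the minor chains, were not called, with means of 0.38 to 1.61 FPKM in adults. Col8a1 alone was called higher in adults, at 9.09 and 7.20 FPKM against 2.87 and 2.85 at P7 (1.24, SE 0.16, limma adjusted p = 7.72e-05); it had also been higher at P7 than at P0.

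Of the 29 tested genes of collagen biosynthesis, 17 were lower in adults and 2 higher, beside 29.8% of all models lower and 10.7% higher. Those with the largest change were the crosslinking enzymes Lox (1.63 ± 0.0242 FPKM in adults, 8.17 ± 1.23 at P7) and Loxl2 (11.5 ± 0.371 in adults, 42.05 ± 1.74 at P7). Fibril regulators were lower in 4 of 9 cases, with Aspn changing most, and receptors in 5 of 6, with Itga1, a collagen-binding integrin chain, changing most. The fibroblast markers summed to 787 and 802 FPKM in adults and 579 and 608 at P7, although 7 of the 9 were called lower and 1 higher, so the sum and the calls had opposite directions. Endothelial markers summed to 150 and 167 in adults and 283 and 294 at P7, with 5 of 6 called lower. The part of either cell type in the fall of the collagens was not tested.

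**Figure D3:**
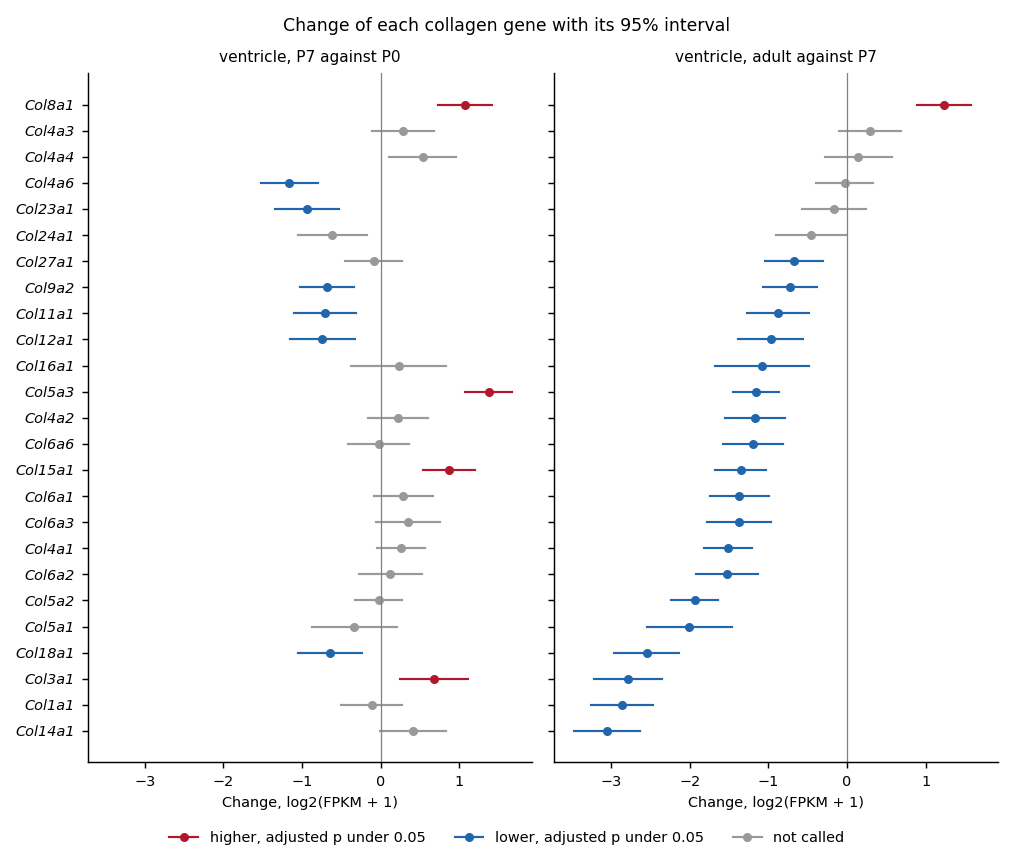
Change of each of the 25 tested collagen genes in ventricle, as log2(FPKM + 1) with its 95% interval (horizontal axis), at P7 against P0 on the left and in adults against P7 on the right, genes ordered by the right panel. In the right panel 19 genes are lower and 1, Col8a1, is higher; in the left panel 4 are higher and 6 lower.

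The balance of type I to type III shifted with age as well. The ratio of Col1a1 to Col3a1 was 0.906 and 0.944 in ventricle at P0, 0.690 and 0.646 at P4, 0.522 and 0.543 at P7, and 0.461 and 0.540 in adults, so ages from P0 to P7 did not overlap while P7 and adult did. Isolated cells gave 0.487, 0.557 and 0.508 at P4 and 0.725, 0.767 and 0.737 at P0, also without overlap. A ratio within a library does not depend on its scaling. Operated and unoperated ventricle libraries did not overlap in this ratio, at 0.222 to 0.440 in operated and 0.461 to 0.944 in unoperated ventricle. They did not overlap either in Col6a1 to Col6a2 (1.27 to 1.54 operated, 0.847 to 1.13 unoperated), Col4a1 to Col4a2 (1.46 to 1.92 operated, 1.07 to 1.43 unoperated) or Col5a1 to Col5a2 (0.545 to 0.995 operated, 1.22 to 1.67 unoperated). FPKM summed over all gene models was also apart, at 519151 to 684130 in operated and 422576 to 502225 in unoperated ventricle. In isolated cells Col6a1 to Col6a2 was 0.852 to 1.010 in operated and 0.507 to 0.762 in unoperated libraries. Sham and resection libraries shared this and its cause was not tested, so no test was run between operated and unoperated libraries, and levels of the 2 kinds set side by side are descriptions.

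**Figure D4:**
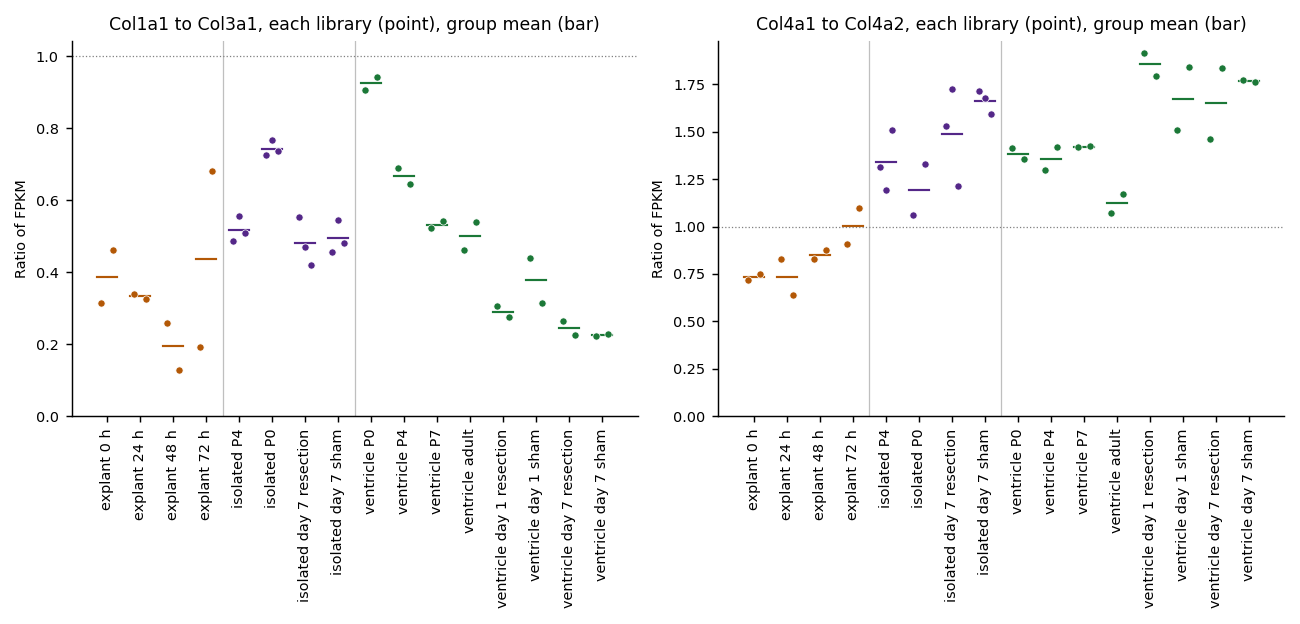
Ratio of FPKM (vertical axis) of Col1a1 to Col3a1 on the left and Col4a1 to Col4a2 on the right in each library, 1 point per library with a bar at the group mean. The ratio of Col1a1 to Col3a1 in ventricle is 0.906 and 0.944 at P0 and 0.522 and 0.543 at P7, and all explant ratios of Col4a1 to Col4a2 but 1 are below the dotted line at 1.

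Resection of heart tissue was set against the sham operation in ventricle at day 1 and at day 7. At day 1, 1 of the 25 tested collagen genes was higher after resection and 1 lower, beside 1.38% and 8.88% of all models. Col14a1 held 23.5 and 24.7 FPKM after resection, against 13.6 and 11.8 after sham (0.88, SE 0.19, limma adjusted p = 0.0174). Col5a3 held 0.892 and 0.964 FPKM after resection, against 2.30 and 1.82 after sham (-0.66, SE 0.14, limma adjusted p = 0.0128). In neither gene did the groups overlap, which with n = 2 a group adds no support to the calls. Markers moved between the same groups: endothelial markers summed to 134 and 192 FPKM after resection and 209 and 214 after sham (1 of 6 called lower), smooth muscle and pericyte markers to 288 and 328 after resection and 472 and 347 after sham (3 of 7 lower), and macrophage markers to 11.3 and 14.1 after resection and 21.8 and 28.7 after sham (2 of 4 lower). The fibroblast markers summed to 394 and 427 after resection and 387 and 437 after sham, with 0 of 9 called, and the part of any of these in the collagen values was not tested. The main chains were not called: Col1a1 averaged 60.7 ± 7.34 FPKM after resection and 70.7 ± 12.3 after sham (-0.21, 95% interval -0.60 to 0.18), and Col3a1 209 ± 9.79 after resection and 188 ± 11.3 after sham (0.15, 95% interval -0.28 to 0.58). Col4a1 averaged 74.7 ± 3.98 after resection and 97.9 ± 0.221 after sham and did not pass the threshold (-0.39, limma adjusted p = 0.0978). The median of all models at day 1 was -0.16, and it moved to 0 after median-of-ratios scaling. Col14a1 was not called without day 1 sham replicate 2 (0.79, limma adjusted p = 0.12) or without resection replicate 1 (0.91, adjusted p = 0.06), and Col5a3 not without sham replicate 1 (-0.55, adjusted p = 0.071) or resection replicate 1 (-0.64, adjusted p = 0.064).

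By day 7 no collagen gene was called in ventricle, by limma, beside 0.147% of all models higher and 0.00699% lower, 22 models in all, while 1556 of the 14306 models had an unadjusted p under 0.05. The smallest p belonged to Col11a1, with 2.62 and 3.43 FPKM after resection against 1.48 and 0.800 after sham (0.92, limma adjusted p = 0.0838), and to Col8a1, with 3.94 and 5.35 after resection against 2.70 and 2.53 after sham. Values of neither gene overlapped between the groups, and neither passed. Col1a1 averaged 85.8 ± 8.79 FPKM after resection and 83.4 ± 10.9 after sham (0.04, 95% interval -0.35 to 0.43), and Col3a1 354 ± 74.3 after resection and 371 ± 56.6 after sham (-0.07, 95% interval -0.50 to 0.36). The fibroblast markers summed to 672 and 828 FPKM after resection and 806 and 716 after sham. The 4 lung epithelium markers summed to 211 and 91.7 after resection and 2.47 and 24.9 after sham, with 2 of 4 called higher, and their part in the values at day 7 was not tested.

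Whether the resection effect differed between days was tested directly, as the effect at day 7 minus that at day 1. The difference was called positive for 3 collagen genes and negative for 0, beside 5.69% and 0.245% of all models. Col12a1, a fibril-surface collagen, held 2.57 and 1.73 FPKM after resection and 1.10 and 0.728 after sham at day 7, and 1.71 and 1.54 after resection and 2.67 and 3.23 after sham at day 1. Its 2 effects had opposite signs, and their difference was 1.3 (SE 0.27, limma adjusted p = 0.0188). Col18a1 did likewise, with 23.2 and 16.6 after resection and 11.7 and 12.5 after sham at day 7, against 14.1 and 13.8 after resection and 24.4 and 19.8 after sham at day 1, a difference of 1.27 (SE 0.27, limma adjusted p = 0.0193). For Col5a3 the difference was 0.71 (limma adjusted p = 0.0493). The difference was also positive for 3 of 4 lung epithelium markers, which at day 1 summed to 0.406 and 0.799 after resection and 0.148 and 12.9 after sham, and for 2 of 4 macrophage markers. The median difference was 0.27 over all models and 0.25 over the collagen genes. After median-of-ratios scaling or quantile normalization 0 collagen genes had a positive difference, beside 223 and 157 of all models. Without ventricle day 7 resection replicate 1 there were 0 as well, and without day 1 sham replicate 1 or 2 or day 7 sham replicate 1 or 2 there was 1 each.

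In isolated cells at day 7, 2 of 28 tested collagen genes were higher after resection than after sham and 0 were lower, beside 1.07% and 0.00761% of 13143 models. Col12a1 held 4.07, 5.34 and 5.45 FPKM after resection, against 0.358, 1.07 and 1.54 after sham (1.62, SE 0.33, limma adjusted p = 0.0338). Col4a6 held 1.27, 2.33 and 1.66 FPKM after resection, against 0.351, 0.276 and 0.611 after sham (0.95, SE 0.17, limma adjusted p = 0.0225). All 3 resection libraries lay above all 3 sham libraries in both genes. The main fibrillar collagens were not called. Col3a1 held 338, 889 and 389 FPKM after resection, against 75.4, 91.4 and 396 after sham (1.80, SE 0.58, limma adjusted p = 0.195). Col1a1 held 188, 417 and 163 FPKM after resection, against 34.5, 49.9 and 190 after sham (1.74, limma adjusted p = 0.215). In both genes sham replicate 3 lay within the range of the resection libraries, far from the other sham replicates.

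Without isolated day 7 sham replicate 3, 14 collagen genes were called higher after resection, Col3a1 (2.54, limma adjusted p = 0.012) and Col1a1 (2.47, adjusted p = 0.016) among them; without resection replicate 1 there were 5, and without sham replicate 1, sham replicate 2 or resection replicate 3 there were 0. Over the collagen genes the median change was 0.84, against 0.13 over all models. Sham replicate 3 also held the most fibroblast marker FPKM of its group: the 9 markers summed to 446, 1023 and 493 after resection and to 80.0, 99.4 and 584 after sham, with 0 of 9 called. The part of the fibroblast markers in the fibrillar values was not tested.

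The main basement membrane genes had negative estimates. Col4a1 held 137, 335 and 60.6 FPKM after resection, against 273, 277 and 305 after sham (-1.01, 95% interval -2.23 to 0.21), and Col4a2 averaged 111 ± 74.6 after resection and 172 ± 17.1 after sham. Neither was called. The 6 endothelial markers summed to 143, 368 and 15.98 FPKM after resection and 408, 442 and 380 after sham, and 0 of 6 were called. The resection libraries came in the same order for these markers as for Col4a1, the sham libraries did not, and the part of endothelial cells was not tested. Fibrillar genes made up 57.1%, 58.3% and 61.7% of collagen FPKM after resection, and 18.6%, 22.3% and 45.5% after sham. Col6a5, a type VI chain that stayed under 1 FPKM in 33 of the 36 libraries, reached 1.22, 5.94 and 46.7 FPKM in the resection libraries and 0.0407, 0.134 and 0.787 in the sham libraries, and was not called; resection replicate 3, its highest library, also held the highest lung and erythroid marker sums. The 4 lung epithelium markers summed to 573, 171 and 1116 FPKM after resection and 0.435, 0.451 and 2.57 after sham, with 4 of 4 called higher. The 3 atrial markers summed to 315, 689 and 266 after resection and 4.93, 13.5 and 8.22 after sham, with 3 of 3 called higher, and the part of such cells in the collagen values was not tested.

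The resection effect in isolated cells minus that in ventricle at day 7, from a fit over all 36 libraries, was called for 0 of 31 tested collagen genes by limma, beside 0.0401% of models positive and 0.0334% negative, while 1116 of 14962 models had an unadjusted p under 0.05. The smallest p belonged to Col4a6 and Col4a3. For Col3a1 the difference was 1.87 (95% interval 0.46 to 3.28, limma adjusted p = 0.465). Without isolated day 7 sham replicate 3 it was positive in 11 genes, and without isolated day 7 resection replicate 1 in 3. Of the genes of biosynthesis, fibril regulation and collagen reception, 0 were called in isolated cells at day 7 or in ventricle at day 7.

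**Figure D5:**
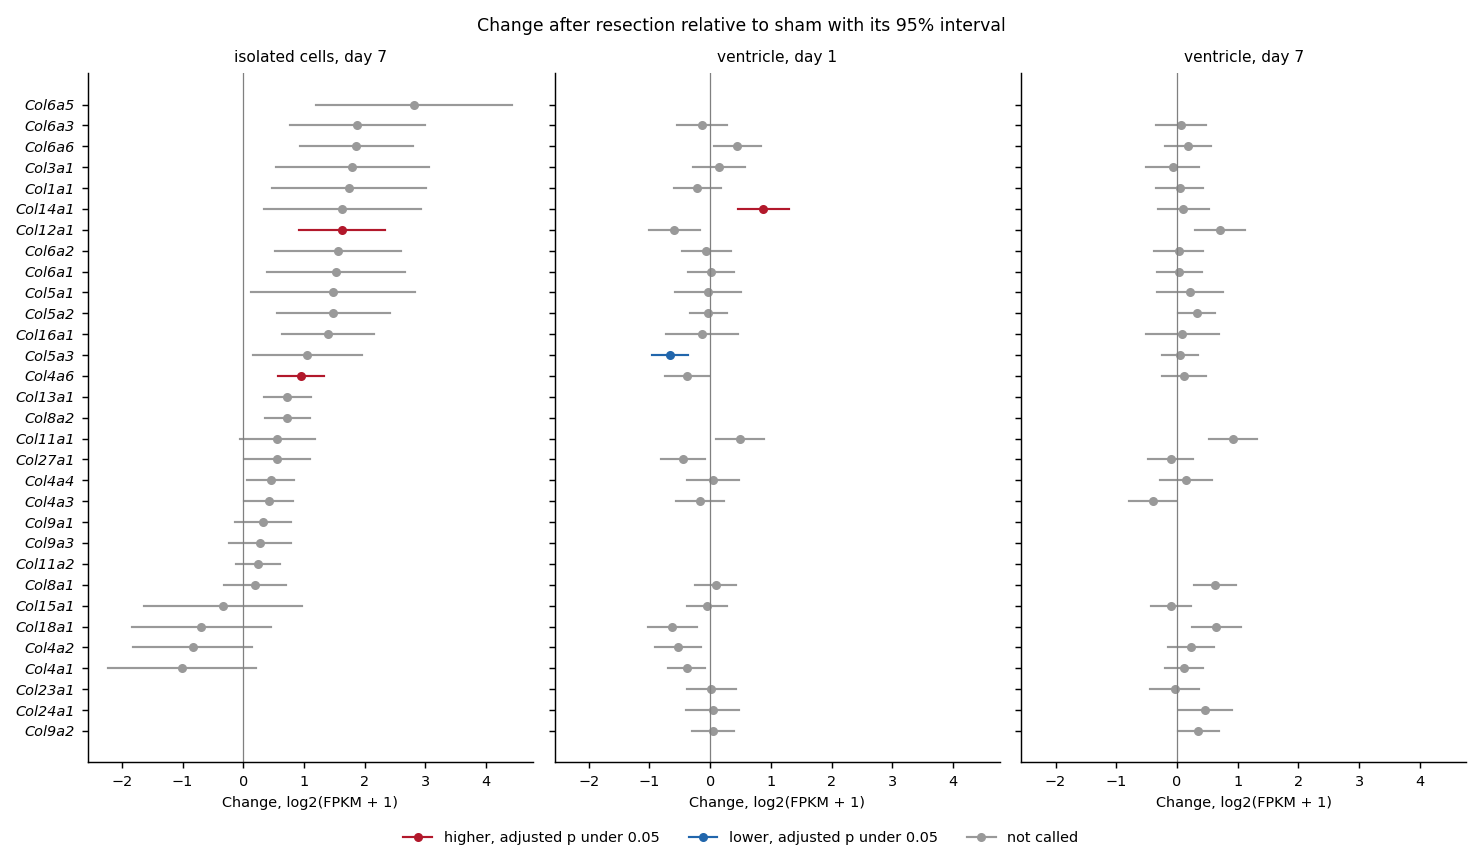
Change after resection relative to sham for each tested collagen gene, as log2(FPKM + 1) with its 95% interval (horizontal axis), in isolated cells at day 7 (28 genes) and ventricle at day 1 and day 7 (25 genes); a row without a point was not tested in that preparation. Called genes are Col12a1 and Col4a6 in isolated cells, Col14a1 and Col5a3 in ventricle at day 1 and none in ventricle at day 7.

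Isolated cells at P4 were set against isolated cells at P0. By limma 0 of the 28 tested collagen genes were called, as was 0.00761% of models higher and 0% lower, and 348 of 13143 models had an unadjusted p under 0.05. Col9a1 (-0.75) and Col12a1 (-1.11) had the smallest p, each with an adjusted p of 1.0 by limma. Col3a1 held 49.6, 156 and 130 FPKM at P4 and 103, 88.6 and 78.0 at P0, and Col1a1 24.2, 86.8 and 66.04 at P4 and 74.4, 68.0 and 57.5 at P0. The P4 libraries spanned those of P0 in both genes, P4 replicate 1 being the lowest of all. Col4a1 held 86.2, 56.8 and 173 FPKM at P4 and 38.3 and 96.7 at P0, and the endothelial markers summed to 111, 18.8 and 231 FPKM in the same P4 libraries and 13.7 and 85.6 in those P0 libraries. Both quantities were lowest in replicate 2 of each age, with only 2 libraries to compare at P0. The part of endothelial cells in the Col4a1 values was not tested.

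Isolated cells were next set against whole ventricle of the same age or operation. At P0, 20 of 31 tested collagen genes were lower in isolated cells and 2 were higher, beside 53.7% of 14962 models lower and 0.708% higher, and the median was -0.91 for collagen genes against -0.57 over all models. Col1a1 held 74.4, 68.0 and 57.5 FPKM in isolated cells, against 368 and 253 in ventricle (-2.19, SE 0.49, limma adjusted p = 0.00106). Col15a1 held 5.04, 4.53 and 15.2 in isolated cells, against 60.7 and 51.2 in ventricle (-2.80, limma adjusted p = 0.000233). Col18a1, Col6a1 and Col5a1 fell by 2.60, 2.28 and 2.10 on the log2 scale. The 9 fibroblast markers summed to 141 to 179 FPKM in isolated cells and 338 to 413 in ventricle, with 8 of 9 called lower, and the 6 endothelial markers to 13.7 to 85.6 in isolated cells and 209 to 254 in ventricle, with 6 of 6 called lower.

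The pair called higher in isolated cells at P0, Col9a1 (1.02 ± 0.573 FPKM in isolated cells, 0.132 ± 0.00617 in ventricle) and Col9a3 (1.03 ± 0.642 in isolated cells, 0.250 ± 0.0624 in ventricle), encode chains of the type IX collagen of cartilage. Each reached 1 FPKM in only 2 libraries, the fewest the filter allows, and had its highest group mean in isolated P0. Both thus entered the test through the group in which they were called higher. The filter was applied anew when libraries were merged or left out. With isolated P0 replicates 1 and 2 taken as 1 sample, or without either of them, 0 genes were called higher. Neither gene passed the filter in these settings, so for this pair the count was fixed in advance and shows nothing. Without ventricle P0 replicate 2 there was 1 higher. The cartilage markers summed to 4.03, 3.51 and 1.49 FPKM in isolated P0 replicates 1, 2 and 3 and 1.99 and 1.19 in ventricle replicates 1 and 2. Erythroid markers summed to 11774, 12047 and 564 in the same isolated libraries and 856 and 730 in ventricle, and their part in the calls was not tested. Without ventricle P0 replicate 1 the count of lower genes was 11. Median-of-ratios scaling, which moved the median of all models to 0.01, left 7 collagen genes lower and 4 higher, beside 552 and 459 of all models.

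At day 7 after sham, isolated cells had 4 collagen genes higher than ventricle and 7 lower, beside 10.1% and 46.6% of all models. The 3 with the largest increase were basement membrane and multiplexin genes. Col4a2 held 159, 165 and 191 FPKM in isolated cells, against 63.7 and 67.6 in ventricle (1.37, limma adjusted p = 0.00432), Col4a1 averaged 285 ± 17.4 in isolated cells and 116 ± 4.25 in ventricle (1.29, adjusted p = 0.0211), and Col18a1 25.8 ± 0.476 in isolated cells and 12.1 ± 0.563 in ventricle (1.03, adjusted p = 0.0485). Lower were Col6a3 (3.95, 4.27 and 17.7 FPKM in isolated cells, 39.7 and 34.8 in ventricle; -2.28), Col14a1, Col5a2, Col3a1, Col8a1, Col6a1 and Col11a1. Fibroblast markers were called lower in 9 of 9 cases and endothelial markers in 0 of 6. The endothelial markers summed to 408, 442 and 380 FPKM in isolated cells and 245 and 292 in ventricle, without overlap, and their part in the calls of Col4a1, Col4a2 and Col18a1 was not tested. The counts depended on single libraries: the number higher was 2, 1 and 2 without ventricle day 7 sham replicate 1, ventricle day 7 sham replicate 2 and isolated day 7 sham replicate 2, and the number lower was 3, 3, 4 and 13 without ventricle day 7 sham replicate 1 and isolated day 7 sham replicates 1, 2 and 3. After median-of-ratios scaling or quantile normalization 2 were lower, beside 2831 and 3994 of all models. The ventricle libraries here are among the operated ones that stand apart in their ratios.

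Adult cardiomyocytes in explant at 0 h held little collagen RNA beside adult ventricle. Of 31 tested collagen genes 19 were lower and 0 higher, beside 31.7% and 1.81% of all models, with a median of -1.37 against -0.37. Col3a1 held 1.88 and 2.37 FPKM in explants at 0 h, against 82.6 and 69.9 in adult ventricle (-4.63, SE 0.53, limma adjusted p = 6.97e-07), and Col1a1 0.588 and 1.10 in explants against 38.1 and 37.7 in ventricle (-4.41, adjusted p = 1.55e-06). Col6a2, Col6a1 and Col15a1 followed, with changes of -3.96, -3.89 and -3.28. Col4a1 held 19.95 and 15.4 FPKM in explants against 88.2 and 88.1 in ventricle (-2.26, SE 0.51, limma adjusted p = 0.00173), and Col4a2 27.7 and 20.6 in explants against 82.2 and 75.1 in ventricle. The fibroblast markers summed to 20.003 and 30.2 FPKM in explants at 0 h and 787 and 802 in adult ventricle, with 9 of 9 called lower and none at 0 in every explant library. The fibril regulators Dcn (9.19 ± 3.64 FPKM in explants, 223 ± 0.871 in ventricle) and Bgn (3.48 ± 1.55 in explants, 80.1 ± 0.614 in ventricle) were lower too.

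During culture the basement membrane genes stayed the most abundant collagens. Col4a1 held 19.95 and 15.4 FPKM at 0 h, 26.1 and 13.5 at 24 h, 16.2 and 11.1 at 48 h and 23.7 and 18.2 at 72 h, with overlap between times. At 72 h, 6 of 10 tested collagen genes were higher than at 0 h and 0 were lower, beside 46.8% of 12246 models higher and 9.07% lower. A gene could pass the filter through the 72 h libraries alone, and with no filter 2 collagen genes were lower. Col3a1 held 9.58 and 5.75 FPKM at 72 h against 1.88 and 2.37 at 0 h (1.44, SE 0.28, limma adjusted p = 0.00449), and Col1a1 1.84 and 3.91 at 72 h against 0.588 and 1.10 at 0 h (1.03, adjusted p = 0.0237). Col16a1, Col8a1, Col6a1 and Col6a2 were the other 4, with changes of 1.13, 1.03, 0.90 and 0.72. The median change was 0.81 for the collagen genes and 0.76 for all models. After median-of-ratios scaling these medians were 0.27 and 0.04 and 0 collagen genes were called higher, as after quantile normalization. Of all models, 1800 were called higher after the former and 2052 after the latter. Without explant 0 h replicate 1 there were 2 higher, and without 0 h replicate 2 or 72 h replicate 2 there were 3.

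At 24 h against 0 h none of the 10 was called by limma, beside 15.4% of models higher and 2.55% lower, while 4301 models had an unadjusted p under 0.05. Col3a1 held 0.650 and 0.654 FPKM at 24 h against 1.88 and 2.37 at 0 h (-0.91, SE 0.28, limma adjusted p = 0.0582). It was called with the replicate number as a block, which takes same-numbered explants as pairs (limma adjusted p = 0.0299). P4hb, a subunit of the enzyme that hydroxylates collagen prolines and also a general folding enzyme, averaged 88.3 ± 9.39 FPKM at 24 h and 215 ± 37.0 at 72 h, against 39.5 ± 6.17 at 0 h, and was called at both times. Of 22 tested biosynthesis genes 7 were higher and 1 lower at 72 h, beside the 46.8% of all models called higher. Bgn reached 24.0 ± 9.10 FPKM at 72 h against 3.48 ± 1.55 at 0 h, and Mrc2, a receptor that takes up collagen, 2.71 ± 0.365 at 72 h against 0.326 ± 0.162 at 0 h. The macrophage markers summed to 78.4 and 134 FPKM at 72 h and 0.869 and 1.52 at 0 h, the fibroblast markers to 21.8 and 26.9 at 72 h and 20.003 and 30.2 at 0 h, and the 4 cardiomyocyte markers other than Myh6 to 2395 and 2599 at 72 h and 14963 and 15065 at 0 h. Myh6, a heart muscle myosin, was left out because explant 0 h replicate 2 lists it at 0 while replicate 1 holds 4762 FPKM. Smooth muscle and pericyte markers summed to 8.41 and 9.25 FPKM at 72 h and 74.1 and 114 at 0 h. Of these, Acta2 and Rgs5 were called lower, Pdgfrb and Cspg4 not. Endothelial markers summed to 7.61 and 19.7 at 72 h and 24.4 and 43.8 at 0 h. Cdh5, Kdr and Tie1 were called lower, Tek, Emcn and Egfl7 not. The epicardial markers Upk3b, Msln and Tbx18 were called higher, as were the fibroblast markers Thy1 and Ddr2. Dpt, Gsn, Lum and Dcn were not called. The part of these cell types in the collagen values was not tested.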

How the data were processed

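The 36 libraries came from Trizol-extracted RNA of mouse heart and were read on Illumina machines, per the labels' protocols. The authors deposited 1 table of FPKM values, with 1 column per library. The submitters' processing notes name TopHat 1.3.2, Bowtie 0.12.7, Cuffdiff (version not stated) and Cufflinks 1.2.1, and build mm9. The annotation is not given in the sources used here, and FPKM from such tools can be listed at 0 where an estimate failed. No column was left out, and depth per library is unknown, so no counting interval is given.

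Values were taken as log2(FPKM + 1), which understates changes of low genes. Group means were fitted with limma 3.58.1 (R 4.3.3), with a variance trend, over 16 ventricle, 12 isolated, 8 explant or all 36 libraries. Gene models with at least 1 FPKM in at least 2 libraries of a fit were tested, two-sided, with Benjamini-Hochberg adjustment over all of them, and called at an adjusted p under 0.05 with no minimum fold. A gene could thus pass the filter through the libraries of 1 group alone. Groups of 2 libraries often do not overlap without a change, so a lack of overlap is a description and not support for a call. Col4a1 and Col4a2 in isolated P0 replicate 1 were missing values. The fits were checked on simulated data. Python 3.11.15, pandas 2.3.3 and Matplotlib 3.10.9 made summaries and figures.

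Named genes followed a rule: per comparison up to 5 called members in each direction, by size of change, with a group mean of at least 1 FPKM; where fewer than 2 were called, the 2 with the smallest p; always Col1a1, Col3a1 and Col4a1; and at most 2 called genes from each list of biosynthesis, fibril regulators and receptors. Members named beside these, Col6a5 and the ratios of chains were chosen after their values were seen. The members and lists were chosen with earlier results of these data known.

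Results were recomputed with quantile normalization, with median-of-ratios scaling, with a pseudocount of 0.1, without the filter, with a replicate block, with the 2 Col4 zeros kept, with further single zeros set to missing, with each library left out, and, chosen after seeing the data, with isolated P0 replicates 1 and 2 as 1 sample. The further single zeros were 81 values over all groups, each with at least 5 FPKM in the other libraries of its group. Deviations from group means correlated between same-numbered explants in 12 of 12 comparisons (0.385 to 0.617), so the numbers may pair the explants. The main explant tests did not use this pairing, and only the replicate block did. Correlations over 0.1 came in 6 of 18 comparisons in isolated cells and 4 of 56 in ventricle, which were not taken as paired. The range was -0.58 to 0.421 in isolated cells and -0.135 to 0.182 in ventricle. Negative values in isolated cells were thus about as large as the explant values, so size alone cannot settle the pairing. With n = 2 both replicate numbers give the same correlation for a pair of groups, so explant and ventricle comparisons repeat each value.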

Additional observations from a re-analysis of the deposited data

Results flagged for a closer look

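The resection effect in ventricle differed between day 7 and day 1 for 3 collagen genes, by the limma test of the difference itself. Over all models 5.69% had a positive and 0.245% a negative difference called. Leaving out each library in turn gave 0 to 4 collagen genes with a positive difference. Col12a1 had a difference of 1.3 on the log2 scale and Col18a1 of 1.27, each higher after resection than after sham in 2 of 2 libraries at day 7 and lower in 2 of 2 at day 1. Col5a3 had a difference of 0.711. These differences were not called after median-of-ratios scaling or quantile normalization, and the cause was not tested.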

How the results depend on the processing

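With depth unknown, the number of libraries limits the precision. Of 944 values of named genes under alternatives, 785 kept direction and side of the threshold. Counts of called collagen genes changed by over 1.5 times as follows, and the cause was not tested. With a pseudocount of 0.1, ventricle P4 had 0 lower, isolated cells at day 7 had 1 higher after resection, P0 isolated cells 1 higher than ventricle, and explants at 24 h 1 lower. With no filter, ventricle P4 had 0 lower, adults 2 higher, day 7 sham isolated cells 2 higher than ventricle and explants at 72 h 2 lower. After median-of-ratios scaling, ventricle at day 1 had 2 higher, the day 7 minus day 1 difference 0 positive and 1 negative, P0 isolated cells 4 higher and 7 lower, day 7 sham isolated cells 2 lower, the preparations' difference 1 positive, explants at 24 h 1 lower and explants at 72 h 0 higher and 1 lower. After quantile normalization, adults had 2 higher, ventricle at day 1 had 2 higher and 0 lower, the difference between days 0 positive, isolated cells at day 7 had 1 higher, P0 isolated cells 4 higher and 6 lower, day 7 sham isolated cells 2 lower, the preparations' difference 1 positive, and explants 1 lower at 24 h and 0 higher at 72 h. With the Col4 zeros kept, day 7 sham isolated cells had 2 higher than ventricle. With isolated P0 replicates 1 and 2 as 1 sample, P0 isolated cells had 0 higher, since Col9a1 and Col9a3 then failed the filter and were not tested.

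With the replicate number as a block, ventricle P4 had 0 lower and explants at 24 h 1 lower (Col3a1), while Col18a1 in day 7 sham isolated cells lost its call (0.90); no other call of a named gene changed. In ventricle and isolated cells the samples share only a number.

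Leaving out each library in turn gave these ranges of counts. In ventricle P4, 0 to 1 were higher and 0 to 1 lower, at P7 1 to 6 lower, in adults 1 to 2 higher, and at day 1 after resection 0 to 1 higher and 0 to 2 lower, with 0 to 4 for the positive difference between days. In isolated cells at day 7, 0 to 14 were higher after resection, with 0 to 11 for the positive difference between preparations. P0 isolated cells had 0 to 3 higher and 11 to 20 lower than ventricle, day 7 sham isolated cells 1 to 3 higher and 3 to 13 lower, and explants at 72 h 2 to 4 higher.

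Estimates that changed sign belonged to genes that were not called. After median-of-ratios scaling Col1a1 stood at 0.031 in ventricle P7, -0.11 after resection at day 7, -0.11 for the difference between days and 0.54 in day 7 sham isolated cells, and Col4a1 at -0.037 after resection at day 7 in ventricle, -0.40 in explants at 24 h and -0.65 at 72 h. After quantile normalization Col1a1 stood at -0.058 after resection at day 7, -0.034 for the difference between days and 0.85 in day 7 sham isolated cells, and Col4a1 at -0.22 in explants at 24 h and -0.43 at 72 h. Over the left-out libraries Col1a1 ranged from -0.99 to 0.23 in day 7 sham isolated cells, -0.71 to 0.19 in isolated P4, -0.25 to 0.29 in ventricle P4, -0.38 to 0.15 in ventricle P7 and -0.090 to 0.17 after resection at day 7. Col3a1 ranged from -0.15 to 0.67 in isolated P4 and -0.29 to 0.14 after resection at day 7, and Col4a1 from -0.35 to 0.55 in explants at 24 h, -0.030 to 1.28 in isolated P4 and -0.054 to 0.42 in ventricle P4.

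Median-of-ratios scaling put the mean summed collagen FPKM at 81.3 in explants at 0 h and 58.9 at 72 h, which turned their order, and at 439 in isolated P0, 1010 in ventricle P0, 1216 at P4, 1378 at P7, 514 after resection and 476 after sham at day 1, and 732 after resection and 768 after sham at day 7.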
